A study of Mus musculus with 8 samples.

Results

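A set of 10 genes of the germline programme was followed in cultured mouse brain cells, where such genes are normally switched off. They were chosen by name (Dazl, Ddx4, Mael, Sycp1, Sycp3, Tex101, Tdrd1, Stk31, Slc25a31 and Taf7l), and every non-control array probe whose RefSeq accession belonged to 1 of them was taken. Each of the 10 genes had exactly 1 such probe, among 55681 non-control probes and 20660 genes with a symbol. The cells were neurospheres, clusters grown in suspension from neural stem cells of the ganglionic eminence, the ventral part of the embryonic telencephalon. Embryos were taken at E14.5, each culture started from a single embryonic brain, and RNA was taken from quaternary neurospheres grown in Neurobasal medium with B-27, EGF, bFGF and heparin. There were 3 groups on 8 single-colour arrays of 1 slide: wild-type floating cultures (WT floating, 3 arrays), floating cultures lacking HP1gamma, the product of Cbx3 (KO floating, 3 arrays), and adherent cultures lacking HP1gamma (KO adherent, 2 arrays). The allele behind the deficiency and the adherent growth conditions are not given in the sources used here.

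Germline genes are held silent in somatic cells by DNA methylation of their CpG-rich promoters and by a Polycomb complex, PRC1.6, which reads E-box and E2F-type sequences through MGA with MAX and through E2F6 with its partner. HP1gamma is a subunit of PRC1.6, and the comparison asked whether these genes stay undetected on arrays with low Cbx3 signal. The 10 genes serve different steps of germ cell life. Dazl encodes an RNA-binding protein that promotes translation in germ cells, and Ddx4 (Vasa) an RNA helicase of germ granules. Mael and Tdrd1 act in the piRNA pathway, which represses transposons. Sycp1 and Sycp3 build the synaptonemal complex that joins homologous chromosomes in meiosis. Tex101 is a surface glycoprotein of germ cells, Stk31 a testis protein with a Tudor domain, Slc25a31 the ADP/ATP carrier of male germ cell mitochondria, and Taf7l a germ cell relative of the TFIID subunit TAF7.

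Most promoters of these genes held an E-box, and all 10 had more CpG than the median promoter. The genes were chosen by name, and whether knowledge of their promoters entered that choice is not recorded. RefSeq windows of the GRCm38.p6 assembly, from 250 bases before to 50 bases after each start, were found for all 10 genes. The E-box CACGTG, a palindrome and the letters bound by MAX-type factors, was present in the windows of 8 of 10 genes and missing from those of Dazl and Tex101. It was present in 8.09% of 27025 genes and in 7.15% of 32851 windows, and in 11.3% of the 11378 windows that had at least 15 CpG, the count of the member poorest in CpG. The E2F-type letters GCGGGA, searched on both strands, occurred in 5 of 10 genes (Ddx4, Mael, Slc25a31, Sycp1 and Sycp3). They occurred in 22.0% of all genes and in 45.4% of the CpG-rich windows, so the count in the members was near that of CpG-rich promoters. The members had 15 to 38 CpG in the window richest in them, with a median of 23. The median of all windows was 7 and the upper quartile 20. A match to these letters is a description of the sequence and not a measured binding site.

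The 250 bases before the start are given, 5′ to 3′ on the strand of the gene, for the 2 members that were detected on all 8 arrays (Ddx4 and Taf7l), for a member with a pair of E-boxes (Sycp3) and for a silent member with none (Dazl). Capitals mark CACGTG, and positions are those of GRCm38.p6, while the array was designed on mm9.
Ddx4, chr13:112652311-112652560, minus strand: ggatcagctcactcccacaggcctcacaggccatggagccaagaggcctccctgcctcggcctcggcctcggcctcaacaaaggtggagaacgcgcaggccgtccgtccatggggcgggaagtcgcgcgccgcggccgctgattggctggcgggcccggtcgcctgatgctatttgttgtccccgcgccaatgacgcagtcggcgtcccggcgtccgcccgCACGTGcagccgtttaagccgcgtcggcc
Taf7l, chrX:134476491-134476740, minus strand: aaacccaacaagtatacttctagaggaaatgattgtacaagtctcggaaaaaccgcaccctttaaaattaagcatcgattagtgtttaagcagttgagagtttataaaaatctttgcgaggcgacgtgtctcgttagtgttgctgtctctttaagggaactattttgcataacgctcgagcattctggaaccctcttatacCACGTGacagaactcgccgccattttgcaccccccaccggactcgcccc
Sycp3, chr10:88459337-88459586, plus strand: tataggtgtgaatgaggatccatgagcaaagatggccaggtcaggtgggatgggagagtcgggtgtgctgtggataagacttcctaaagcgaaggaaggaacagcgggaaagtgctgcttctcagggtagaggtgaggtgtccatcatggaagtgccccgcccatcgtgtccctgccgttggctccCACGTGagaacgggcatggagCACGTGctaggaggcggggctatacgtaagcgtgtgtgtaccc
Dazl, chr17:50293621-50293870, minus strand: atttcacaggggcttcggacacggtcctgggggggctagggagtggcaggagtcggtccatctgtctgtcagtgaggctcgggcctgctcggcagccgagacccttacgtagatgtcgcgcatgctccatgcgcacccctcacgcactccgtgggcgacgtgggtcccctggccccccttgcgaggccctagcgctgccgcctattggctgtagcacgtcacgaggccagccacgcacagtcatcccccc
The E-box began 29 bases before the start in Ddx4, 49 in Taf7l, and 64 and 43 in Sycp3. GCGGGA stood further out, beginning 136 bases before the start in Ddx4 and 147 in Sycp3, and was in neither the Taf7l nor the Dazl window.

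The arrays had a 75th percentile of processed signal between 616 and 865, and 44.5% to 55.4% of their non-control spots were well above background. Levels are log2 processed signal minus the 75th percentile of the same array. The level of Cbx3 went against the label on 2 arrays: levels were 5.83 for WT floating 1, 5.95 for WT floating 3 and, against its label, 5.91 for KO adherent 2, but lay between -2.76 and -1.75 on the other 5, which included the array labelled WT floating 2. Both arrays are therefore named by their label, and the comparisons of labelled groups are also given without them. Of 11 neural stem and progenitor markers, 10 were well above background on all 8 arrays and Dlx2 on 7. Of 5 markers of pluripotent or germ cells, Nanog and Nanos3 were above background on all 8 arrays, Dppa3 on 1, and Pou5f1 and Prdm14 on none. Among markers of other cell types, Csf1r, Pecam1 and Kdr were above background on all 8 arrays. The remaining markers of microglia (4 of 5), endothelium (2 of 4), red blood cells (3 of 3) and fibroblasts or meninges (5 of 5) were above background on 6 arrays or fewer.

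Of the 10 germline genes, 5 were not well above background in any culture, at low or at high Cbx3 signal. Dazl, Mael, Sycp1, Tdrd1 and Stk31 were well above background on 0 of 8 arrays, Tex101 and Slc25a31 on 1 array each, Sycp3 on 3, and Ddx4 and Taf7l on all 8. For comparison, 57.4% of the 20660 genes were above background on all 8 arrays and 24.6% on 0 of 8. Each array detected 2 or 3 of the 10 members, against 60.7% to 68.4% of all genes. The 5 arrays of low Cbx3 signal detected 3, 3, 3, 3 and 2 members, and the 3 arrays of high signal detected 3, 2 and 2. The number of members detected overlapped between arrays with low and with high Cbx3 signal.

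**Figure D1:**
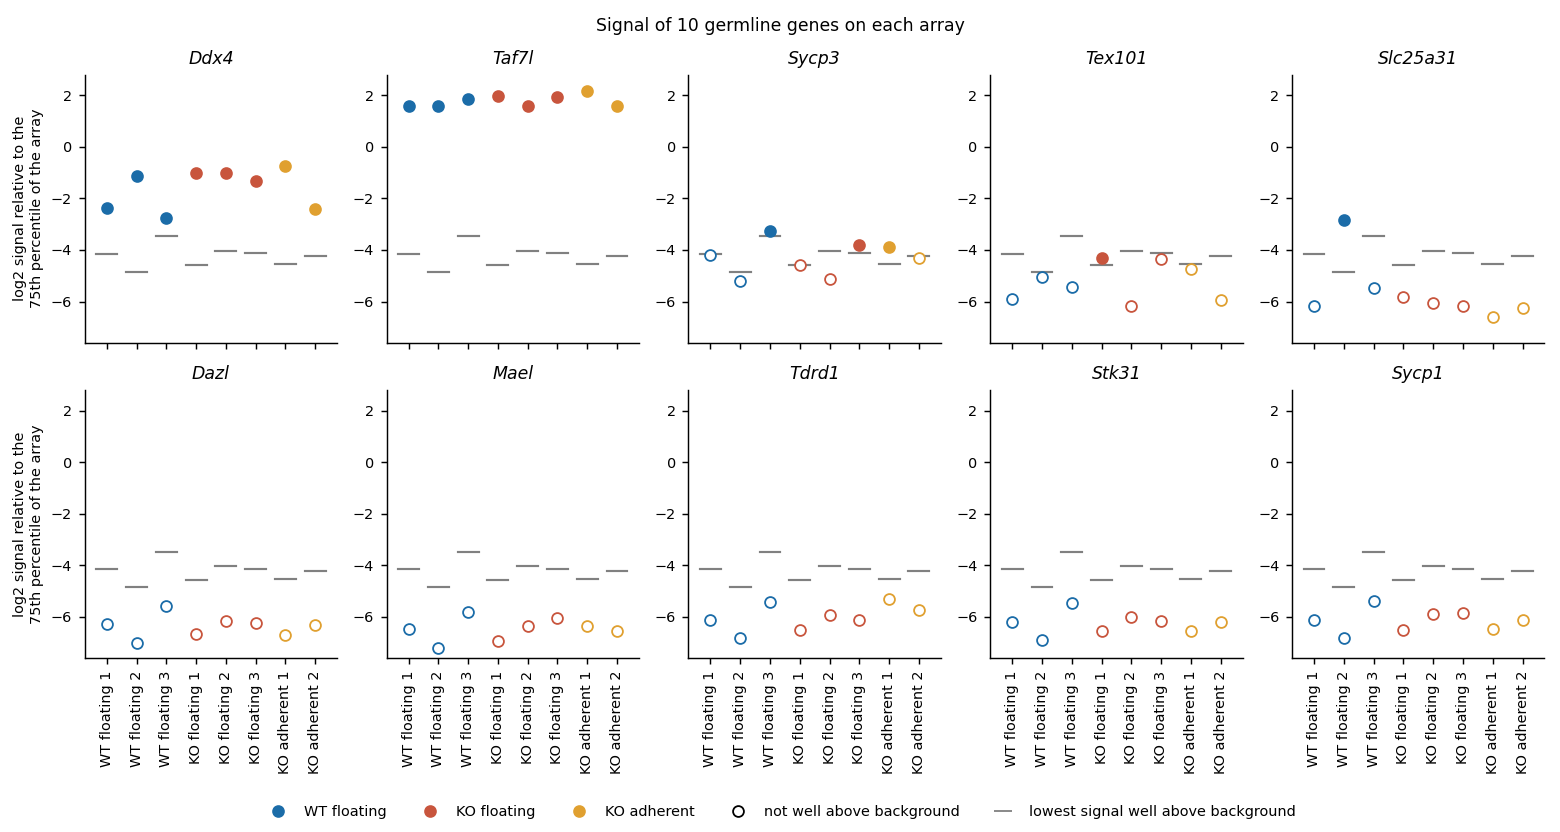
Level of each of the 10 germline genes (log2 processed signal relative to the 75th percentile of the array) on the 8 arrays, with filled points where the probe was well above background and grey bars at the lowest signal well above background on that array. Ddx4 and Taf7l are filled on all 8 arrays, while Dazl, Mael, Tdrd1, Stk31 and Sycp1 lie below the bar on every array.

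The 5 members that were never well above background lay near the floor of the arrays. Their processed signals ranged from 5.76 to 17.6 over 40 spots, which was 1.70 to 5.10 times below the lowest signal well above background on the same array. The levels of Dazl were -6.29, -7.02 and -5.56 on WT floating arrays 1 to 3, -6.67, -6.16 and -6.25 on KO floating arrays 1 to 3, and -6.69 and -6.33 on KO adherent arrays 1 and 2. The level was highest on WT floating 3 and lowest on WT floating 2, and the groups overlapped. Mael had -6.48, -7.20 and -5.81 on the WT floating arrays, -6.92, -6.37 and -6.03 on the KO floating arrays and -6.36 and -6.56 on the KO adherent arrays. Mael, Stk31 and Sycp1 were also highest on WT floating 3 and lowest on WT floating 2. The 95th percentile of negative control spots had the same extremes, -4.52 and -6.51, so most of these values give no order of expression. Of the 40 spots, 36 were not over that percentile, and 4 were: Tdrd1 on KO adherent 1 (-5.31 against -6.39) and KO adherent 2 (-5.73 against -5.77), Sycp1 on KO floating 3 (-5.85 against -5.98) and Mael on KO adherent 1 (-6.36 against -6.39). Stk31 ranged from -6.89 to -5.46 and Sycp1 from -6.81 to -5.38. The member nearest to detection was Tdrd1 on KO adherent 1, where its level of -5.31 was 0.76 on the log2 scale below the lowest signal well above background. On the 5 arrays of low Cbx3 signal the 5 genes together held signals of 5.76 to 17.6, and on the 3 arrays of high signal 7.63 to 15.1. No fold change is given for them, since both sides of any contrast were below background.

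Sycp3 crossed the detection limit on 3 arrays, at low and at high Cbx3 signal. Tex101 and Slc25a31 crossed it on 1 array each, in both cases 1 of low Cbx3 signal, which is too few to show a pattern. Sycp3, the lateral element protein of the synaptonemal complex, had levels of -4.18, -5.21 and -3.27 on the WT floating arrays, -4.60, -5.14 and -3.82 on the KO floating arrays and -3.87 and -4.30 on the KO adherent arrays. It passed the limit on 3 arrays (WT floating 3, KO floating 3 and KO adherent 1), and its highest signal, 65.7 on WT floating 3, belonged to an array of high Cbx3 signal. That value was 0.20 on the log2 scale over the limit of its array. Sycp3 was highest on WT floating 3 and lowest on WT floating 2. The 95th percentile of negative control spots had its extremes on the same arrays (-4.52 and -6.51). The part of background in the order of Sycp3 was not tested. Tex101 had levels of -5.89, -5.05 and -5.43 in WT floating, -4.31, -6.17 and -4.37 in KO floating and -4.73 and -5.95 in KO adherent cultures. Its only detected value was that of KO floating 1. The lowest value of all was that of KO floating 2, another array of low Cbx3 signal. The remaining arrays of low Cbx3 signal held -5.05 to -4.31, above the -5.95 to -5.43 on those of high signal. Apart from KO floating 1, all these values were below the limit. Slc25a31, the germ cell ADP/ATP carrier, had a level of -2.85 on the array labelled WT floating 2, with a signal of 119.7. On the other 7 arrays it held -6.60 to -5.47, all below the limit. Its level on KO floating 1, an array of low Cbx3 signal, was -5.84. That was over the 95th percentile of negative control spots there (-6.43). With a single array well above background there was no group in which Slc25a31 could be compared, and WT floating 2 is 1 of the arrays whose Cbx3 signal opposed its label. None of these 3 genes was well above background on every array of any labelled group, so they were not tested in the contrasts over 8 arrays. Sycp3 entered the fit without the 2 arrays that oppose their label, through KO adherent 1, a group of 1 array there. KO floating minus WT floating was -0.80 for Sycp3 in that fit, with values below the limit on both sides.

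Ddx4 was measured on all 8 arrays, and its level was higher on every array of low Cbx3 signal than on every array of high Cbx3 signal. Its processed signals were 132, 398 and 93.5 on WT floating arrays 1 to 3, 346, 426 and 243 on KO floating arrays 1 to 3, and 415 and 137 on KO adherent arrays 1 and 2. Relative to the 75th percentile, the levels were -2.36, -1.12 and -2.76 in WT floating, -1.01, -1.01 and -1.34 in KO floating, and -0.75 and -2.43 in KO adherent cultures. WT floating 2 and KO adherent 2, by label, thus stood apart from the other arrays of their groups. The 5 arrays of low Cbx3 signal held -1.34 to -0.75 and the 3 of high signal -2.76 to -2.36, a gap of 1.01 or 2.02-fold. Such a separation was common on these arrays: 17.3% of 22635 features were higher on every array of low Cbx3 signal, and 22.7% were lower. Because the arrays were ordered here by a measured signal, the gap is a description and was not tested.

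**Figure D2:**
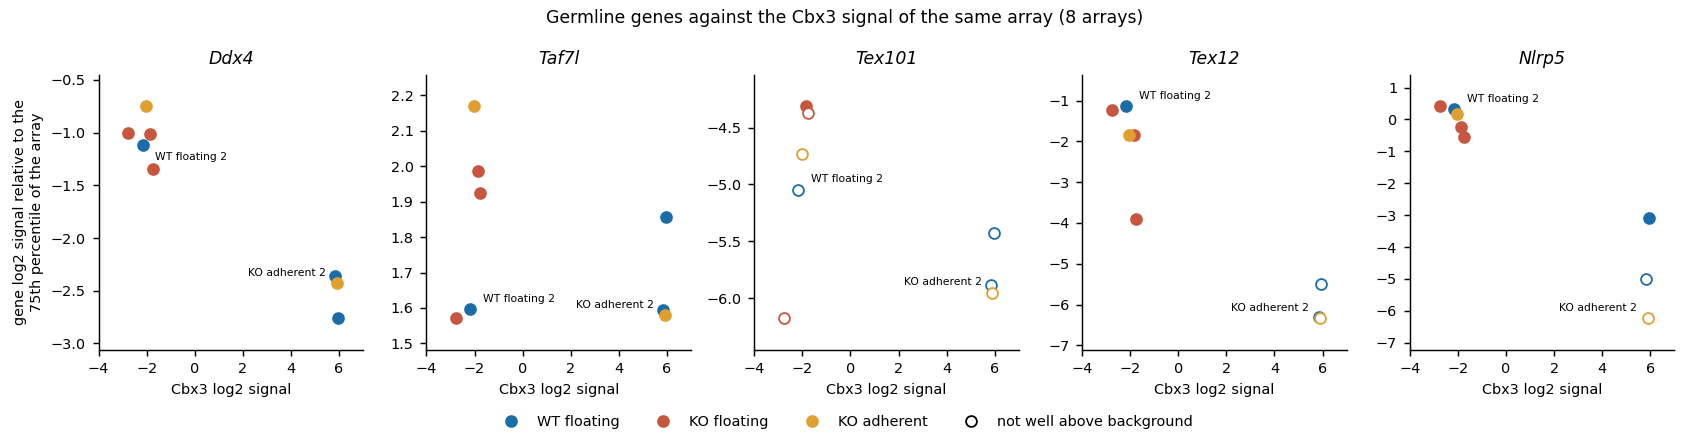
Level of 5 germline genes (vertical axes, log2 relative to the 75th percentile, each panel with its own scale) against the Cbx3 level of the same array (horizontal axis), coloured by labelled group, with open points where the probe was not well above background. Ddx4, Tex12 and Nlrp5 are higher on all 5 arrays of low Cbx3 signal than on the 3 of high signal, whereas Taf7l and Tex101 overlap.

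Between the labelled groups the Ddx4 difference was within the spread of the arrays. The mean level was -2.08 ± 0.85 (SD, n = 3) in WT floating, -1.12 ± 0.19 (SD, n = 3) in KO floating and -1.59 ± 1.19 (SD, n = 2) in KO adherent cultures. In the limma fit over all 8 arrays, KO floating exceeded WT floating by 0.96 (SE 0.54, 95% interval -0.31 to 2.22, limma adjusted p = 0.81). The fit called 1 of 22706 features (0.0044%), 393 had an unadjusted p under 0.05, and 0 of the 2 members tested passed. KO adherent against KO floating cultures differed by -0.47 for Ddx4 (SE 0.60, limma adjusted p = 0.99), in a contrast with 0 of 22706 features called (0.0%) and 252 at an unadjusted p under 0.05. Within same-numbered floating pairs, KO minus WT was 1.34, 0.11 and 1.41 for numbers 1, 2 and 3, and pair 2 holds the array labelled WT floating 2. Within the 2 rows of the slide it was 0.73 in row 1, with 2 arrays a side, and 1.41 in row 2, with 1 a side.

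When both arrays whose Cbx3 signal opposed the label were left out, the Ddx4 difference was larger. KO floating then exceeded WT floating by 1.44 (SE 0.21), but the limma adjusted p of 0.075 missed the threshold of 0.05. The fit called 46 of 26015 features (0.177%, with 0.0961% higher and 0.0807% lower). In it KO adherent 1 was a group by itself, so probes above background on that array alone were also tested. Its adjusted p-values are therefore over more features than those of the joined fit below. With the 4 remaining KO arrays of both cultures joined into 1 group, the mean was -1.03 ± 0.24 (SD, n = 4) against -2.56 ± 0.28 (SD, n = 2) in WT floating arrays 1 and 3. Ddx4 rose by 1.53 in that fit (SE 0.21, 95% interval 1.03 to 2.03, limma adjusted p = 0.014), and all 4 KO arrays were above both WT arrays. The fit called 3718 of 21507 features (17.3%), of which 1926 (8.96%) were higher and 1792 (8.33%) lower in KO cultures, so a call was frequent among all features. The count of called features fell to 458 without KO adherent 1, to 185 with no filter on dim probes, and was at most 5370, without KO floating 2. The Ddx4 call was lost without WT floating 3 (1.33, limma adjusted p = 0.087) and with no filter (1.53, limma adjusted p = 0.065). This grouping was chosen with the Cbx3 signals known. It set floating and adherent KO cultures against floating WT cultures, so genotype and culture were partly confounded in it. The summed level of the 11 neural stem and progenitor markers was 37.8 to 42.2 on the 5 arrays of low Cbx3 signal and 32.3 to 34.4 on the other 3, where Dlx2 at background (-6.54) lowered the sum of KO adherent 2. The markers did not move one way: in the joined fit Slc1a3, Nr2e1 and Pax6 were among those that rose, while Vim fell by 0.68 (SE 0.16, limma adjusted p = 0.037) and Nes fell by 0.80 (SE 0.21, limma adjusted p = 0.0495). Their part in the Ddx4 difference was not tested. The summed level of the 5 markers of pluripotent or germ cells overlapped, at -18.3 to -14.6 and -17.7 to -16.0, with Pou5f1 and Prdm14 not above background on any array and Dppa3 on 1, so that background values weigh in the sum. Of the 2 markers detected throughout, Nanos3 overlapped, but Nanog separated as Ddx4 did, with -1.42 to -0.71 on the arrays of low and -2.26 to -1.76 on those of high Cbx3 signal, and its difference in the joined fit was 0.87 (SE 0.25, limma adjusted p = 0.056). Its part in the Ddx4 difference was not tested. In bulk RNA, more cells with a transcript and more transcript per cell cannot be told apart.

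Taf7l, the X-linked relative of TAF7, was detected in every culture, and its level spanned 0.60 on the log2 scale over the 8 arrays. The levels were 1.59, 1.60 and 1.86 in WT floating, 1.99, 1.57 and 1.93 in KO floating, and 2.17 and 1.58 in KO adherent cultures, from processed signals of 2050 to 3137. The groups overlapped, as did the arrays of low (1.57 to 2.17) and high Cbx3 signal (1.58 to 1.86). KO floating exceeded WT floating by 0.14 (SE 0.22, 95% interval -0.37 to 0.66, limma adjusted p = 0.84), and the difference was 0.10 (SE 0.21, limma adjusted p = 0.77) without the 2 arrays and 0.19 (SE 0.20, limma adjusted p = 0.51) with the KO cultures joined. KO adherent minus KO floating was 0.05 (SE 0.25, 95% interval -0.53 to 0.63, limma adjusted p = 0.99). Xist was at background on 2 arrays (WT floating 1, KO floating 3), where the Y-linked Ddx3y and Eif2s3y were detected, and the Taf7l levels of those arrays, 1.59 and 1.93, lay within the range of the other 6.

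**Figure D3:**
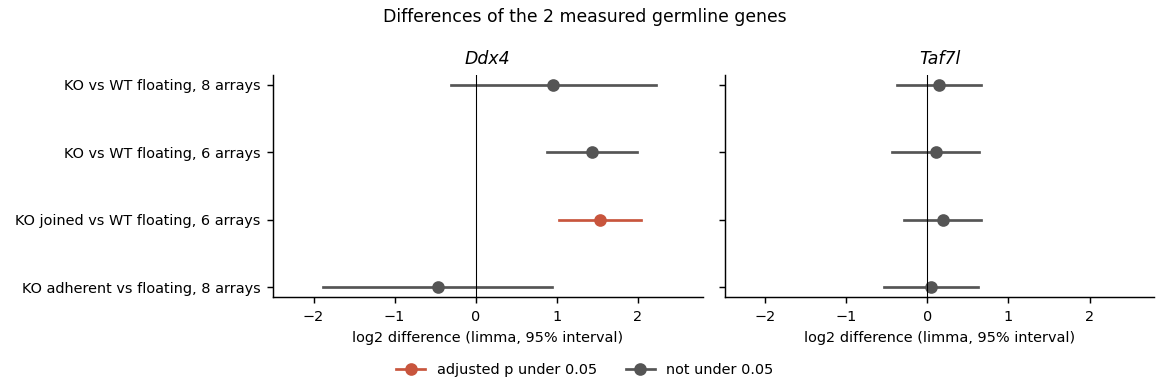
Differences of Ddx4 and Taf7l between groups (log2, points with 95% intervals from limma) in 4 contrasts. The Ddx4 interval lies above 0 in both fits on 6 arrays, with an adjusted p under 0.05 only where the KO cultures were joined (1.53), and all 4 Taf7l intervals include 0.

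The features most like these 2 genes over the 8 arrays were found among the tested features with a symbol. Ddx4 was followed most closely by 9330179D12Rik (Pearson r = 0.996), Mpp3 (r = 0.990), a scaffold protein of the MAGUK family, and 1700029J07Rik (r = 0.989). Taf7l was followed by Lefty2 (r = 0.984), a secreted antagonist of Nodal signalling, Cd244a (r = 0.971), a receptor of natural killer cells, and Zfp398 (r = 0.970), a zinc finger protein. With Cbx3 itself, Ddx4 had r = -0.97 and Taf7l r = -0.34. Ranked from the highest r, Cbx3 stood at 13051 of 13191 features for Ddx4, so other features had a more negative r with Ddx4. For Taf7l it stood at 9775. These correlations are over 8 arrays that share 1 slide, and they describe the arrays only.

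Other germline genes, in lists set by their roles, were above background on all 8 arrays in 16 of 70 cases, against 2 of 10 members and 57.4% of all genes. Of the piRNA pathway genes, 3 of 14 on the array (Tdrd7, Tdrkh and Pld6) were above background on all 8 arrays and 7 on none. Of 20 meiosis genes, 4 (Syce2, Rec8, Stag3 and Msh5) were above background on all 8 and 10 on none. Of 12 oocyte genes, Gdf9 and Sohlh2 were above background on all 8, and 5 were so on none. Of 11 spermatid genes, Crem and Prm2 were above background on all 8, and 4 were so on none. Of 13 genes of germ cell specification and pluripotency, 5 (Nanos3, Prdm1, Nanog, Dppa5a and Dnd1) were above background on all 8 and 3 on none. Several of these genes, such as Crem, Prdm1 and Tdrd7, are also known in somatic tissues.

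**Figure D4:**
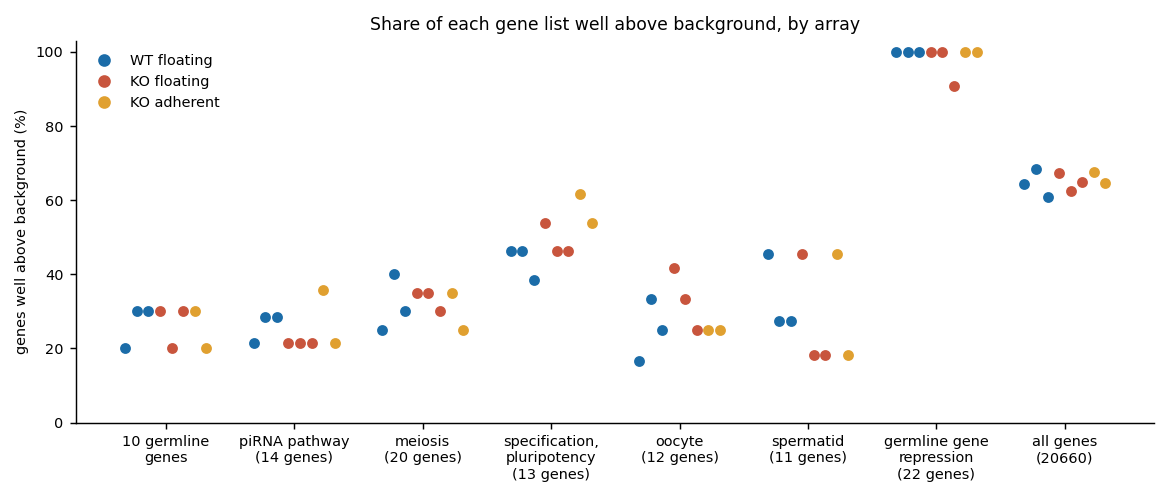
Share of each gene list well above background (percent of the genes on the array), with 1 point per array coloured by labelled group. The members stand at 20% to 30% on every array, all genes at 60.7% to 68.4%, and the germline repression list at 100% on every array except KO floating 3.

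None of the genes in these lists passed the threshold in the contrasts over 8 arrays, or in KO against WT floating without the 2 arrays. In the fit with the KO cultures joined, whose calls made up 17.3% of all features, 6 of the 21 tested list genes passed. Tex12, a central element protein of the synaptonemal complex, had levels of -6.30, -1.14 and -5.49 in WT floating, -1.85, -1.23 and -3.89 in KO floating, and -1.85 and -6.32 in KO adherent cultures. It was above background on all 5 arrays of low Cbx3 signal and on 0 of the 3 of high signal, a pattern shown by 117 of 20660 genes (0.566%), by Tex14 among the listed genes, and by 0 of the 10 members. Against the mean of the lowest signals above background on WT floating 1 and 3, Tex12 was at least 3.04-fold higher in joined KO cultures. By the same measure Tex14, which stabilises the bridges between germ cells, was at least 1.22-fold higher. The joined KO mean of Tex14, -3.52, was below the limit of WT floating 3 alone, -3.47. Its levels on KO floating arrays 1 to 3 (-3.84, -3.52 and -3.56) were also below that limit. The detection pattern of Tex14 thus depends partly on the limits of the arrays. The limma adjusted p-values, 0.028 for Tex12 and 0.017 for Tex14, rest on WT values at background. Nlrp5, a maternal-effect gene of the oocyte, had levels of -5.01, 0.32 and -3.08 in WT floating, -0.24, 0.41 and -0.55 in KO floating, and 0.16 and -6.22 in KO adherent cultures. It was above background on 6 of 8 arrays, among them all 4 joined KO arrays and 1 of the 2 WT arrays. The fitted difference of 3.99 (SE 0.55, limma adjusted p = 0.014) includes the background value of WT floating 1 and is no exact size. Tex12, Tex14 and Nlrp5 entered the joined fit only through the KO arrays, where they were high, so their calls are no support for a rise of germline genes in general. Tdrd7, a Tudor protein of germ granules, rose by 1.28 (SE 0.19, limma adjusted p = 0.015). Msh5, a meiotic crossover factor, fell by 1.0 (SE 0.15, limma adjusted p = 0.015), and Crem, a cAMP-responsive transcription factor, fell by 0.84 (SE 0.18, limma adjusted p = 0.033). The list genes that passed thus lay on both sides: 4 rose and 2 fell. Those that rose include Tex12, Tex14 and Nlrp5, whose direction the filter favoured, so the count is no measure of balance. Tdrd7, which rose, and Msh5 and Crem, which fell, were above background on all 8 arrays. The calls of the 6 list genes depended on single arrays. All 6 were lost without KO adherent 1, with adjusted p-values from limma of 0.051 (Tex14) to 0.085 (Crem), and all but Nlrp5 were lost without WT floating 3. Tdrd7, Tex12 and Crem were lost without WT floating 1, and Msh5, Tex12 and Crem without KO floating 1, while each kept its direction. None of the 6 passed with no filter. The median difference of the 7 meiosis genes tested was -1.0 and that of all features -0.07.

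The machinery of germline repression was expressed in all cultures. Of 22 genes, which included the PRC1.6 subunits E2f6, Mga, Max, L3mbtl2 and Pcgf6, DNA methyltransferases and histone H3K9 methyltransferases, 20 were above background on all 8 arrays and 0 on none. Mga had levels of -1.04 to -0.84 and E2f6 of 2.41 to 3.1 over the 8 arrays. In the joined fit, 1 of the 22 passed: Dnmt3a, a de novo DNA methyltransferase, rose by 0.64 (SE 0.16, limma adjusted p = 0.046). It kept that call in 1 of 6 fits that left out a further array, without KO floating 2. The median difference of the list was -0.10, beside -0.07 over all features. Setdb1, an H3K9 methyltransferase, and Pcgf6 were at background on KO floating 3 alone, with levels of -6.15 and -5.46 there, against 0.40 to 1.02 and -0.14 to 0.55 on the other 7 arrays. Each rests on 1 probe. On KO floating 3 the members' levels were -1.34 for Ddx4 and 1.93 for Taf7l, within the range of the other KO floating arrays for Taf7l and the lowest of the KO floating arrays for Ddx4.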

How the data were processed

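RNA of 8 cultures was hybridised, per the labels, with Cy3 to 1 Agilent slide. The deposited scanner files hold linear spot intensity, made by the authors with Agilent Feature Extraction (11.0.1.1 per the file headers, 9.1.3.1 per the submitters' processing notes). The deposited value table holds the same intensity: 99.96% of values of WT floating 1 lay within 0.01% of the processed signal. From the files, log2 processed signal minus the array's 75th percentile was computed over non-control spots, without outlier spots. Of 55681 probes, 27235 matched a RefSeq gene of GRCm38.p6, and the others stayed unnamed. The brightest probe stood for a gene and was tested if 1 or more groups had it well above background on all their arrays. Tests used limma 3.58.1 in R 4.3.3 (lmFit, eBayes, two-sided), with Benjamini-Hochberg adjustment at 0.05 over all features, and were checked on simulated data. A fold written "at least" compares the brighter group's mean with a limit averaged over the arrays of the dimmer group. The limit of an array is its lowest log2 signal well above background.

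The members, lists and alternatives were chosen with earlier results of these data known. The text names every member, Cbx3, up to 4 passing genes per list, otherwise up to 3 of the most detected, and the 3 features most like each of up to 2 members detected on at least 4 of 8 arrays (Ddx4 and Taf7l). Other genes named (the marker genes, Dnd1, Mga, E2f6, Setdb1, Pcgf6, Xist, Ddx3y and Eif2s3y) were added to describe the arrays. The deviations of same-numbered floating arrays from their group means had r = 0.103, 0.590 and 0.335. WT floating 1 with KO floating 3 reached 0.346, and WT floating 3 with KO floating 1 0.205, both above the first same-numbered pair. The WT mean also includes WT floating 2, whose Cbx3 signal opposed its label. These values therefore do not establish pairing. The main fits used none, and a replicate block is given as an alternative. The p-values measure the spread between these cultures. The number of arrays limits the precision.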

Additional observations from a re-analysis of the deposited data

How the results depend on the processing

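Detection depended on the flag: with the less strict flag for signal significantly above background, or with the 95th percentile of negative controls, 2 members (Dazl and Stk31) instead of 5 were above background on no array. Ddx4 and Taf7l were above background on every array under each rule tried. With the less strict flag Sycp3 was also above background on all 8 arrays, Tex101 on 7 and Slc25a31 on 2 (WT floating 2 and KO floating 1). For KO against WT floating, the count of 1 feature became 0 under normexp (313 at an unadjusted p under 0.05), no filter, a filter for detection on all 8 arrays, a fit of just the 2 groups, robust eBayes with a trend, the replicate block (350) and the slide row as a block (352). It ranged from 0 to 3 when each array was left out, with 3 without WT floating 3. It was 46 without the 2 arrays that oppose their label and 3718 with the KO cultures joined, and the members called were 0 in every setting except the last, with 1. For KO adherent against KO floating, 0 features became 7 under quantile normalization, and 0 to 6 when each array was left out, with 6 without WT floating 2 and 1 without KO adherent 1. In that contrast Ddx4 ranged from -1.31 to 0.37 when each array was left out, and was 0.37 without KO adherent 2, without the 2 arrays, and without them and with no filter. Taf7l ranged from -0.25 (without KO adherent 1) to 0.34, was -0.08 without KO floating 2, and changed sign to -0.089 with the slide row as a block. The cause was not tested.

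With the KO cultures joined, the Ddx4 difference was 1.03 to 1.73 over the alternatives, and 1.45 with the replicate block (limma adjusted p = 0.021). Without the 2 arrays but with cultures kept apart, it was 1.38 with the replicate block (limma adjusted p = 0.13). Without KO adherent 1 as well, no adherent array was left. That fit is the same as the joined fit without KO adherent 1, in which Ddx4 passed (1.44, limma adjusted p = 0.046). With no filter, the joined fit called 185 features, and Ddx4 was not among them. With the KO cultures joined, Tex14 lost its call under normexp (0.32, limma adjusted p = 0.14), and both blocks kept the calls of Ddx4 and the 7 list genes. These added settings were chosen after seeing the data.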
